A study of Mus musculus with 12 samples.

Results

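Tuft cells are rare chemosensory cells of the intestinal epithelium. They use a signalling chain shared with taste cells, in which receptors act through the G protein gustducin and a phospholipase to open the cation channel Trpm5. They are known as the main intestinal source of interleukin 25, which prompts innate lymphoid cells to release interleukin 13, and interleukin 13 in turn favours the formation of tuft and goblet cells. They also make leukotrienes from arachidonic acid, through Alox5, its activating protein Alox5ap and the leukotriene C4 synthase Ltc4s.

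The genes described here are 9 that mark tuft cells or act in them: Dclk1, Trpm5, Il25, Pou2f3, Sh2d6, Avil, Gnat3, Ltc4s and Alox5ap. They were found by symbol among the 54838 genes of the deposited ileum counts, and all 9 were present. The counts come from 12 C57BL/6J mice in 4 groups of 3. In the water + PBS and water + Dex groups the mice drank normal water, and in the ZnSO4 + PBS and ZnSO4 + Dex groups they drank water with 25 mM ZnSO4 for 7 days. Each mouse was then injected with PBS or with 200 µg of dexamethasone (Dex), a synthetic glucocorticoid, and the ileum was taken 2 h later. No transgene or deletion is named for any group, and the labels give no age. The comparisons ask how the tuft cell genes in the ileum differ with zinc in the drinking water, with Dex, and whether the effect of Dex depends on zinc.

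The libraries held 10760132 to 11827487 counted reads each. Both treatments were visible in their known target genes. The normalised count of Mt1, the zinc-binding protein metallothionein, lay between 490 and 1376 in the 6 water mice and between 11971 and 27940 in the 6 ZnSO4 mice. The normalised count of Fkbp5, a chaperone that glucocorticoids induce, lay between 950 and 1222 in the 6 PBS mice and between 10263 and 12396 in the 6 Dex mice. The summed normalised count of 6 ileum enterocyte markers was 100300 to 203800 per mouse, with no other tissue set beside it. It was lowest in ZnSO4 + Dex replicate 2. Summed smooth muscle markers were 30350 in that mouse, against 24050 and 20890 in the other mice of its group. B cell markers varied widely inside groups, from a summed normalised count of 220 to 8683 over the 12 mice, and were highest in water + PBS replicate 2 and ZnSO4 + PBS replicate 2.

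The tuft cell genes were lowly expressed. Together they held 412 to 759 reads per mouse, and 8 of the 9 passed edgeR's filter on low counts, which left 15938 of all genes to be tested. Il25 did not pass. Per base of exon, in FPKM (reads corrected for exon length and library size) in water + PBS mice, Sh2d6 had the highest level, 2.73 ± 0.557 (SD, n = 3). Avil, Trpm5, Alox5ap, Dclk1 and Ltc4s followed with means of 1.64, 1.58, 1.53, 1.07 and 0.962. Gnat3 and Pou2f3 had means of 0.568 and 0.525, and Il25 had 0.0523. The neighbours Avil, Trpm5 and Alox5ap, Dclk1 and Ltc4s, and Gnat3 and Pou2f3 lay within 1 SD of each other. The exon lengths are those of all annotated transcripts joined, which gives a low value to a gene with many long transcripts, such as Dclk1 with 15296 bases. All of these levels are those of the whole tissue, in which fewer tuft cells and less RNA per tuft cell cannot be told apart.

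**Figure D1:**
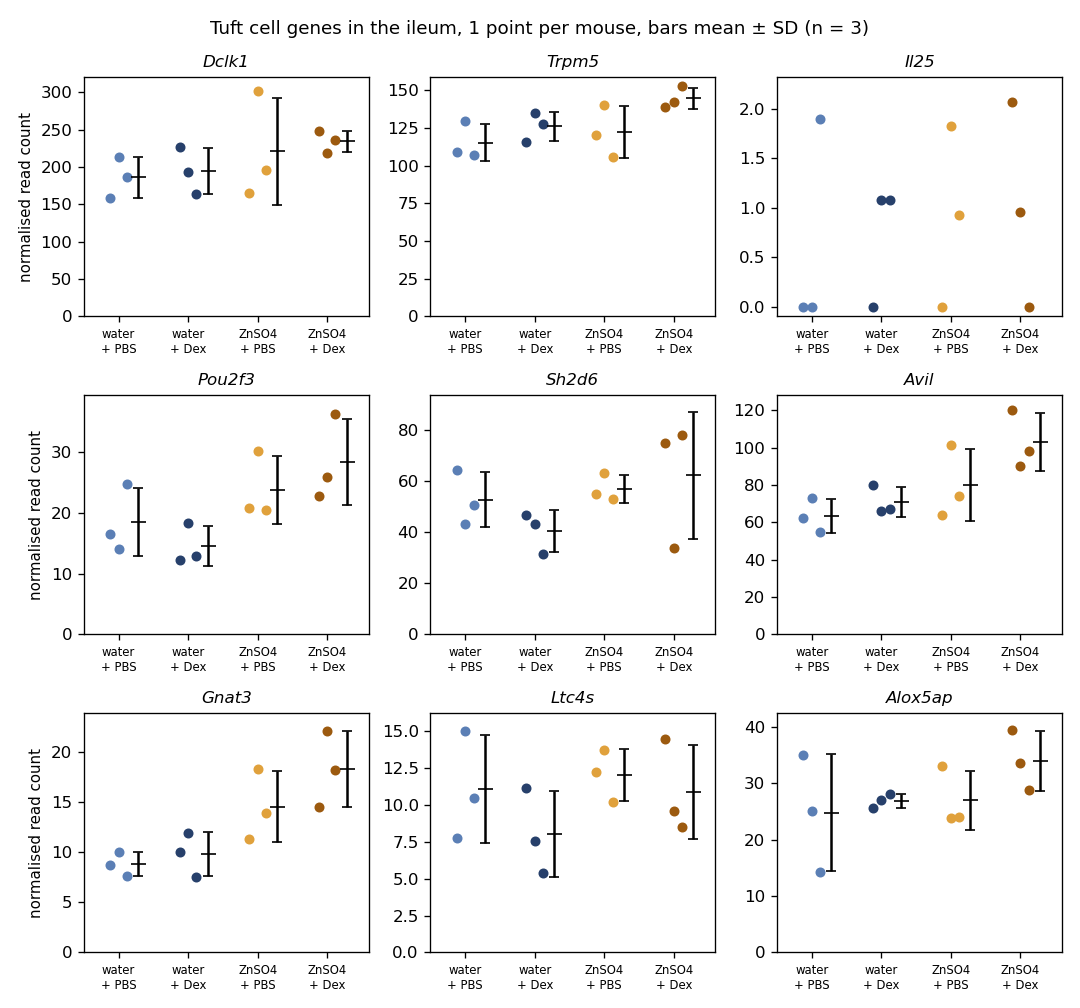
Normalised read count (vertical axis) of each of the 9 tuft cell genes in the 4 groups (horizontal axis), with 1 point per mouse and black bars for the mean ± SD of 3 mice, left out for Il25, which had at most 2 reads in any mouse. In the Gnat3 panel the ZnSO4 mice sit above the water mice under each injection, whereas in the Dclk1 panel the groups overlap and 1 ZnSO4 + PBS mouse stands at 302.

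Gnat3 was higher with ZnSO4, and the other tested tuft cell genes had higher fitted means in ZnSO4 mice without passing the test. Averaged over both injections, the log2 fold change (LFC) of ZnSO4 against water was above 0 for all 8 tested genes, with a median of 0.32. The median over all 15938 tested genes was -0.0046, and 49.1% of them were above 0. At a Benjamini-Hochberg adjusted p under 0.05 in edgeR's quasi-likelihood test, 1 of the 8 was called, against 12.8% of all tested genes. The called share of the tuft cell genes is therefore close to that of the transcriptome. Summed over the 9 genes, the normalised count was 458.9 to 523.8 in the water + PBS group, 445.2 to 528.5 in the water + Dex group, 481.8 to 694.6 in the ZnSO4 + PBS group and 577.4 to 675 in the ZnSO4 + Dex group. The ZnSO4 + Dex mice thus lay above all water mice, while the ZnSO4 + PBS mice overlapped with them, apart from replicate 2.

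Gnat3 encodes the alpha subunit of gustducin and lies at chr5:17962549-18019834 on the plus strand of mm10. Its reads numbered 9, 10 and 8 in water + PBS mice and 9, 11 and 7 in water + Dex mice. In ZnSO4 + PBS mice they numbered 12, 20 and 15, and in ZnSO4 + Dex mice 14, 23 and 17. In reads every ZnSO4 mouse was above every water mouse, and in normalised counts the lowest ZnSO4 mouse (11.3) was just under the highest water mouse (11.9). Averaged over both injections the LFC was 0.80 (SE 0.21, 95% interval 0.35 to 1.26, edgeR adjusted p = 0.0269). The filter on low counts asks for about 10 reads in at least 3 mice. Gnat3 met this only through the ZnSO4 mice, since the water mice had 7 to 11 reads. It thus entered the test through the arm in which it was higher. The call was not firm at this depth. DESeq2 gave an adjusted p of 0.0911 and a filter that kept every gene with at least 1 count gave 0.0637. The adjusted p was 0.055 without water + PBS replicate 1, 0.062 without water + PBS replicate 3, 0.0618 without water + Dex replicate 1 and 0.065 without water + Dex replicate 3. It was 0.062 without ZnSO4 + PBS replicate 2, 0.0543 without ZnSO4 + PBS replicate 3 and 0.0602 without ZnSO4 + Dex replicate 2. The LFC stayed between 0.70 and 0.89 over the 18 alternatives.

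The sequence ahead of Gnat3 is shown because it is the gene that was called. These are the 250 bases before its RefSeq start, at chr5:17962320-17962569 on the plus strand of GRCm38.p6, 5′ to 3′, in lower case throughout because neither motif searched was found in it.
Gnat3: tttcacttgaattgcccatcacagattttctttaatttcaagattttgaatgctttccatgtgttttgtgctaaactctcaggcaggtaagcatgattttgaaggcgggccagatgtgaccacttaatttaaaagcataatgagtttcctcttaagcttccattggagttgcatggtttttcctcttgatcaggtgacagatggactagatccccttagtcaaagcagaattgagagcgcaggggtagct
The motifs were the octamer ATGCAAAT, bound by POU factors such as the protein of Pou2f3, and AGAACA, 1 arm of the palindrome bound by the glucocorticoid receptor, each on both strands. RefSeq windows of 300 bases, which run on 50 bases past the start, were at hand for Gnat3, Trpm5, Sh2d6, Avil, Ltc4s and Dclk1, the last with 2 starts. None of these 7 windows held either motif, while 1.74% of all 32851 windows held the octamer and 19% held that arm. The absence says only that these letters do not occur in these windows.

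Trpm5, the channel at the end of the same signalling chain, lies at chr7:143069153-143094642 on the minus strand. Its normalised counts were 109, 129 and 107 in water + PBS mice, 116, 135 and 128 in water + Dex mice, 121, 140 and 106 in ZnSO4 + PBS mice, and 139, 142 and 153 in ZnSO4 + Dex mice. The 3 ZnSO4 + Dex mice were above all water mice, whereas the ZnSO4 + PBS mice overlapped with theirs. The LFC of ZnSO4 over both injections was 0.14 (95% interval -0.06 to 0.34, edgeR adjusted p = 0.353), the smallest and most narrowly bounded of the 8.

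Pou2f3, the transcription factor without which tuft cells do not form, lies at chr9:43123939-43210369 on the minus strand. Its reads numbered 17, 14 and 26 in water + PBS mice, 11, 17 and 12 in water + Dex mice, 22, 33 and 22 in ZnSO4 + PBS mice, and 22, 27 and 34 in ZnSO4 + Dex mice. The groups overlapped in PBS mice and did not overlap in Dex mice. Over both injections the LFC of ZnSO4 was 0.66 (SE 0.21, 95% interval 0.20 to 1.12), and the edgeR adjusted p was 0.0616. It was 0.0389 without water + PBS replicate 3, the water mouse with the highest count, and 0.14 without water + Dex replicate 1. In 2 of 19 alternatives it was under 0.05.

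Avil and Dclk1 encode an actin-binding protein, advillin, and a kinase that is widely used to stain tuft cells. Avil, at chr10:127000709-127020994 on the plus strand, had normalised counts of 62.3, 73.2 and 55.1 in water + PBS mice and 80.3, 65.9 and 67.0 in water + Dex mice. It had 64.1, 102 and 74.1 in ZnSO4 + PBS mice and 120, 90.3 and 98.3 in ZnSO4 + Dex mice. The Dex groups did not overlap, and the PBS groups did. The LFC of ZnSO4 over both injections was 0.43 (SE 0.14, 95% interval 0.13 to 0.73, edgeR adjusted p = 0.0599). The adjusted p was 0.0423 without ZnSO4 + PBS replicate 1 and 0.129 without ZnSO4 + Dex replicate 1. In 3 of 19 alternatives it was under 0.05. Dclk1, at chr3:55242364-55539068 on the plus strand, had the most reads of the 9 genes. Its normalised counts had a lowest value, median and highest value of 159, 190 and 226 in the 6 water mice and of 165, 228 and 302 in the 6 ZnSO4 mice. The highest value was that of ZnSO4 + PBS replicate 2, which also held the highest counts of Trpm5, Pou2f3, Sh2d6, Avil and Gnat3 in its group. Its summed normalised count over the 9 genes was 694.6, against 481.8 and 498.3 in the other mice of that group. The LFC of Dclk1 was 0.26 (95% interval -0.06 to 0.58, edgeR adjusted p = 0.274), and 0.11 without ZnSO4 + PBS replicate 2.

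Sh2d6, an adaptor protein gene at chr6:72513641-72521707 on the minus strand, had 64.2, 43.1 and 50.4 normalised counts in water + PBS mice and 46.8, 43.2 and 31.3 in water + Dex mice. It had 54.7, 63.1 and 52.8 in ZnSO4 + PBS mice and 74.7, 33.6 and 78.0 in ZnSO4 + Dex mice. Replicate 2 of the ZnSO4 + Dex mice was thus below all but 1 of the water mice, while the others were above all of them. Replicate 2 also had the lowest summed enterocyte markers, 100300, and the part of this in its Sh2d6 count was not tested. The LFC of ZnSO4 over both injections was 0.36 (95% interval -0.09 to 0.81, edgeR adjusted p = 0.273). Without that mouse the adjusted p was 0.0432, and within Dex mice 0.0479. Without ZnSO4 + Dex replicate 3 it was 0.459 over both injections, and 1 of 19 alternatives brought that value under 0.05.

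The leukotriene genes had few reads and wide intervals. Alox5ap, at chr5:149264767-149288153 on the plus strand, had 15 to 36 reads in water mice and 26 to 38 in ZnSO4 mice, with an LFC of 0.23 (95% interval -0.22 to 0.67). Ltc4s, at chr11:50236461-50238616 on the minus strand, had 5 to 15 and 8 to 15 reads, with an LFC of 0.28 (95% interval -0.28 to 0.84). Their edgeR adjusted p were 0.498 and 0.509. Both genes share exonic bases with a gene on the opposite strand, 13.3% of them in Alox5ap and 26.4% in Ltc4s, as do Avil (4.86%), Trpm5 (3.44%) and Dclk1 (0.745%). The libraries were stranded, but whether the counting used the strand is not given in the sources used here, so reads of these partners cannot be set apart with certainty.

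Il25, the cytokine at the start of the type 2 circuit, lies at chr14:54932695-54935837 on the plus strand. It had 0 to 2 reads in every mouse, 10 in all, and 0 in 5 of the 12 libraries. A difference between groups was not detectable at this depth.

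Within each injection, no tuft cell gene passed edgeR's test for ZnSO4. In PBS mice 0 of 8 were called, against 4.66% of all tested genes, and 1, Gnat3, had an unadjusted p under 0.05 (LFC 0.72, 95% interval 0.07 to 1.36, adjusted p = 0.204). In Dex mice 0 of 8 were called, against 4.37%, and 3 had an unadjusted p under 0.05. These were Pou2f3 (LFC 0.96, 95% interval 0.29 to 1.62, adjusted p = 0.106), Gnat3 (LFC 0.89, 0.25 to 1.53, adjusted p = 0.118) and Avil (LFC 0.53, 0.11 to 0.96, adjusted p = 0.153). DESeq2 also called 0 in each. In normalised counts, every ZnSO4 mouse was above every water mouse for 1 of the 8 genes in PBS mice, Gnat3, where 12.4% of all tested genes were so. In Dex mice this held for 5 of the 8, Gnat3, Pou2f3, Avil, Trpm5 and Alox5ap, where 12.7% of all tested genes were so. The interaction of ZnSO4 and Dex, which tests whether the effect of ZnSO4 differs between PBS and Dex mice, called 0 of the 8, and 0% of all genes (794 at an unadjusted p under 0.05, 6 genes by DESeq2). No tuft cell gene had an unadjusted p under 0.05 or was called by DESeq2. The largest interaction LFC was that of Pou2f3, 0.59 (95% interval -0.33 to 1.51, edgeR adjusted p = 0.959). The effect of ZnSO4 was therefore not shown to differ between the injections.

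**Figure D2:**
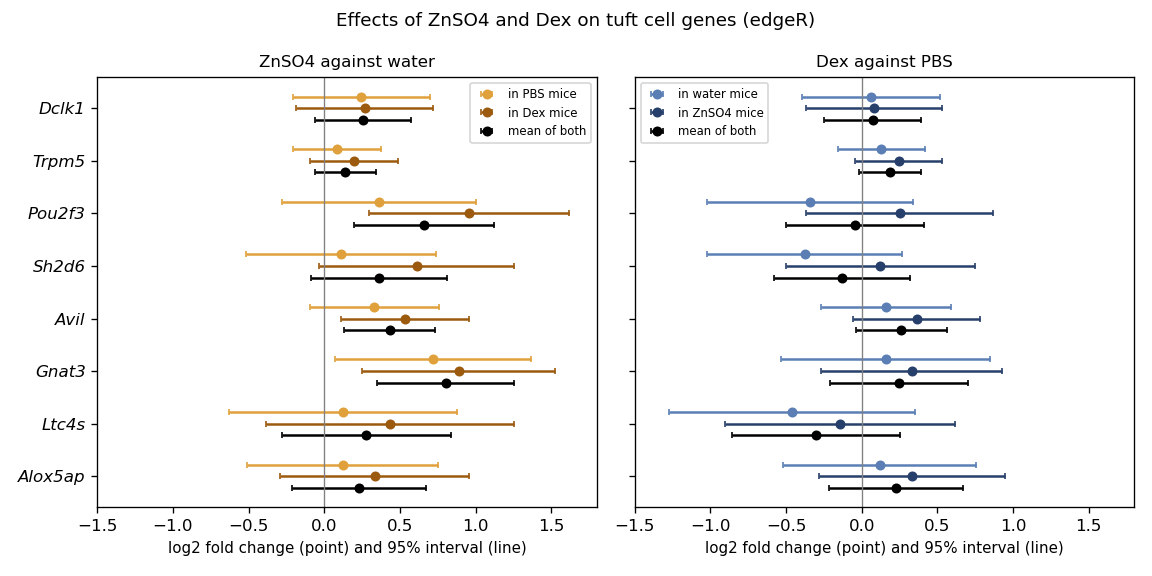
Log2 fold changes (horizontal axis, points) with 95% intervals (lines) of the 8 tested tuft cell genes (vertical axis) for ZnSO4 against water (left) and Dex against PBS (right), in each subset of mice and averaged over both. All averaged ZnSO4 points lie above 0, from 0.14 for Trpm5 to 0.80 for Gnat3, and the intervals of Gnat3, Pou2f3 and Avil do not reach 0, while all averaged Dex intervals cross 0.

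No tuft cell gene passed the test for Dex, 2 h after injection. Averaged over both drinking waters, edgeR called 0 of the 8, against 21.5% of all tested genes, and it called 0 in water mice (9.93% of all genes) and 0 in ZnSO4 mice (13.7%). No tuft cell gene had an unadjusted p under 0.05 in any of these 3 comparisons, and DESeq2 also called 0. The averaged LFC was above 0 for 5 genes and below 0 for 3, with a median of 0.13 (all genes -0.0014). Avil (LFC 0.26, 95% interval -0.04 to 0.56) and Trpm5 (LFC 0.19, -0.02 to 0.39) came nearest to the threshold, with edgeR adjusted p of 0.208 and 0.187. For Dclk1 the LFC was 0.07, and its interval of -0.25 to 0.39 bounds the change at these 2 h. For Ltc4s (LFC -0.30, 95% interval -0.86 to 0.25) the interval was wider. The signs of Pou2f3 (LFC -0.05), Sh2d6 (-0.13) and Dclk1 each turned when single libraries were left out.

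Other genes of tuft cell biology were taken from 4 lists with 37 further genes, of which 28 were tested. With ZnSO4 over both injections 2 of the 28 were called by edgeR, 1 higher and 1 lower, where 12.8% of all tested genes were called, and the median LFC was 0.03. Ptgs1, the cyclooxygenase 1 of prostaglandin synthesis, was higher (LFC 0.34, adjusted p = 0.0485), and Itpr3, the calcium channel between the phospholipase and Trpm5, was lower (LFC -0.19, adjusted p = 0.0395). Both calls were lost with the B cell covariate, with an adjusted p of 0.0659 for Ptgs1 and 0.052 for Itpr3. That of Itpr3 was also lost with upper-quartile factors (adjusted p = 0.101) and with the filter of at least 1 count (adjusted p = 0.128). The adjusted p of Ptgs1 reached 0.0528 to 0.115 without any 1 of the 3 water + PBS mice, water + Dex replicates 1 and 3, ZnSO4 + PBS replicate 3, or ZnSO4 + Dex replicates 2 and 3. That of Itpr3 reached 0.0541 to 0.105 without any 1 of the mice of the water + PBS, water + Dex and ZnSO4 + PBS groups or without ZnSO4 + Dex replicate 1. Alox5, the partner of Alox5ap, had an LFC of 0.40 (95% interval 0.09 to 0.71, adjusted p = 0.0842), and Hpgds, a prostaglandin D synthase, of -0.09 (95% interval -0.59 to 0.40, adjusted p = 0.823).

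With Dex over both drinking waters 4 of these 28 genes were called, 2 higher and 2 lower, where 21.5% of all tested genes were called, and the median LFC was -0.03. Itpr3 rose (LFC 0.33, edgeR adjusted p = 0.000809), from a normalised count of 1414 to 1666 in the 6 PBS mice to 1709 to 2336 in the 6 Dex mice, without overlap. Ptgs1 rose as well (LFC 0.57, adjusted p = 0.00161). Ptges, a prostaglandin E synthase, fell (LFC -0.98, adjusted p = 0.000523), from 97.3 to 134 in PBS mice to 43.5 to 77.8 in Dex mice, again without overlap. Of all tested genes, 9.74% did not overlap between the PBS and Dex mice. The calls of Itpr3, Ptgs1 and Ptges held in all 19 alternatives. Runx1, a transcription factor also found in blood cells, fell (LFC -0.53, adjusted p = 0.0365). The call was lost with the B cell covariate (LFC -0.36, adjusted p = 0.115), and all 10 B cell markers had an LFC below 0 with Dex, with a median of -2.07 and a lowest edgeR adjusted p of 0.107. It was also lost with an adjusted p of 0.0602 to 0.087 without any 1 of water + PBS replicate 2, water + Dex replicates 2 and 3, ZnSO4 + PBS replicate 2, or ZnSO4 + Dex replicates 1 and 3. Hpgds and Alox5 had LFCs of -0.50 and 0.32, with adjusted p of 0.145 and 0.138. Itpr3, Ptgs1 and Ptges are made in many cell types of the gut.

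The type 2 circuit around Il25 was covered by 18 genes, of which 12 were tested. Il13 had 2 reads in all and 0 in 10 libraries, so it could not be tested. Il17rb, the receptor chain for interleukin 25, had an LFC of 0.08 with ZnSO4 (95% interval -0.31 to 0.48) and of -0.02 with Dex (95% interval -0.41 to 0.37). With ZnSO4 over both injections 2 of the 12 were called, both lower, where 12.8% of all tested genes were called in either direction. The LFC was above 0 for 4 of the 12, with a median of -0.222. Retnlb, a goblet cell protein induced by interleukin 13, had an LFC of -1.44 (edgeR adjusted p = 0.0403), with 20 to 30 reads in the 6 water mice and 1 to 18 in the 6 ZnSO4 mice. Retnlb passed the filter on low counts only through the water mice, in which it was higher. Il33, an alarm cytokine that acts on the same lymphoid cells, had an LFC of -0.64 (adjusted p = 0.0456) and is named here after its values were seen. The call of Il33 was lost with upper-quartile factors (adjusted p = 0.0551) and with the B cell covariate (adjusted p = 0.0635). Leaving out single libraries ended both calls, with an adjusted p of 0.0563 to 0.0887 for Retnlb and of 0.0542 to 0.101 for Il33, in each case for 9 of the 12 libraries. For Retnlb the exceptions were ZnSO4 + PBS replicates 1 and 3 and ZnSO4 + Dex replicate 3, and for Il33 water + PBS replicates 2 and 3 and ZnSO4 + Dex replicate 2.

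With Dex over both drinking waters 3 of the 12 were called, all lower, where 21.5% of all tested genes were called in either direction. The LFC was above 0 for 4 of the 12, with a median of -0.189. Il13ra1, a receptor chain for interleukin 13, had an LFC of -0.42 (edgeR adjusted p = 0.00781) and Stat6, the transcription factor below that receptor, of -0.18 (adjusted p = 0.00774). Both calls held in all 19 alternatives. Cysltr1, a receptor for the leukotrienes that Ltc4s makes, had an LFC of -0.37 (adjusted p = 0.0454). Its call was kept in 5 of 19 alternatives. It was lost with DESeq2 (adjusted p = 0.0885), upper-quartile factors (0.0512), the filter of at least 1 count (0.0926), the B cell covariate (0.0752) and the replicate number as a block (0.0502). It was also lost, with an adjusted p of 0.0538 to 0.108, without any 1 of 9 libraries, and was kept without water + Dex replicate 2, ZnSO4 + PBS replicate 3 or ZnSO4 + Dex replicate 2.

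Markers of other cells moved with ZnSO4 too, and their part in the Gnat3 result was not tested. The counts that follow stand beside 12.8% of all tested genes called in either direction. Of 8 T cell markers 4 were lower, among them Cd8a (LFC -1.27, edgeR adjusted p = 0.000315), and of 7 goblet cell markers 3 were higher, among them the mucin Muc2 (LFC 0.85, adjusted p = 0.00274). Of 6 tested enteroendocrine markers 2 were higher, among them the hormone secretin, Sct (LFC 0.46, adjusted p = 0.00917). Of the 3 tested mast cell markers Kit was higher (LFC 0.55, adjusted p = 0.00111). The other 7 of 10 listed mast cell genes were too low to be tested, and 1 had no read in any library. The summed mast cell level, nearly all of it Kit, which other gut cells also make, was 510.2 to 569.1 in water + PBS, 641.1 to 687.2 in water + Dex, 649.8 to 810.5 in ZnSO4 + PBS and 922.7 to 1185 in ZnSO4 + Dex mice. In the same order of the 4 groups, the mean normalised count of Kit was 494, 606, 665 and 960. That of the mast cell protease Mcpt1 was 24.7, 25.7, 26.6 and 38.9, and that of Mcpt2 was 8.19, 7.99, 9.92 and 13.6. Of the same list, Cpa3 had 3.55, 9.08, 2.48 and 9.79, and Tpsb2 had 2.94, 4.01, 4.65 and 3.36. Mast cells also use Alox5, Alox5ap and Ltc4s. Of 6 fibroblast markers 1 was higher, the receptor Pdgfra (LFC 0.45, adjusted p = 0.0107), and of 7 Paneth and stem cell markers the stem cell receptor Lgr5 was higher (LFC 0.62, adjusted p = 0.00379). The calls of Cd8a, Muc2, Sct, Kit, Pdgfra and Lgr5 held in all 19 alternatives. The Paneth cell protease Mmp7 was lower (LFC -0.57, adjusted p = 0.0369). Its adjusted p was 0.0563 with the replicate number as a block, and 0.0545 to 0.0854 without any 1 of the 3 ZnSO4 + PBS mice, ZnSO4 + Dex replicate 3, or replicates 1 and 3 of either water group. Of 7 epithelial markers the keratin Krt18 was higher (LFC 0.31, adjusted p = 0.0217) and Krt20 lower (LFC -0.47, adjusted p = 0.0400). That of Krt18 was 0.0565 to 0.0581 without water + Dex replicate 1 or ZnSO4 + PBS replicate 3. That of Krt20 was 0.0597 with the B cell covariate, and 0.065 to 0.0929 without any 1 of the water mice, ZnSO4 + PBS replicates 2 and 3 or ZnSO4 + Dex replicate 1. Summed smooth muscle markers were 14570 to 19450 in water mice, 17330, 17110 and 30820 in the ZnSO4 + PBS mice and 20890 to 30350 in the ZnSO4 + Dex mice, and 1 of 6 of these markers, Tagln, was called. Its LFC was 0.50 (adjusted p = 0.0374), and the adjusted p was 0.0503 to 0.0882 without any 1 of the 3 water + PBS mice, water + Dex replicates 1 and 2 or ZnSO4 + Dex replicates 2 and 3. Dclk1 and Avil are also neuronal genes, and 7 of 8 neuron and glia markers had an LFC above 0 (lowest edgeR adjusted p = 0.0533), with summed levels of 404.7 to 468.4, 440.6 to 543.5, 446.6 to 649.3 and 518 to 610.7 in the 4 groups in the same order. With the mean of the B cell markers as a covariate, the LFC of Gnat3 was 0.84 (adjusted p = 0.0263). Dex over both drinking waters, with 21.5% of all tested genes called, also moved such markers. Higher were 2 of 9 macrophage and dendritic cell, 1 of 7 goblet, 1 of 6 enteroendocrine and 1 of 6 ileum enterocyte markers. So were 1 of 8 neuron and glia, 1 of 3 mast cell and 1 of 5 eosinophil and neutrophil markers. Lower were 2 of 8 T cell and 2 of 7 Paneth and stem cell markers, and the remaining lists had 0 calls.

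**Figure D3:**
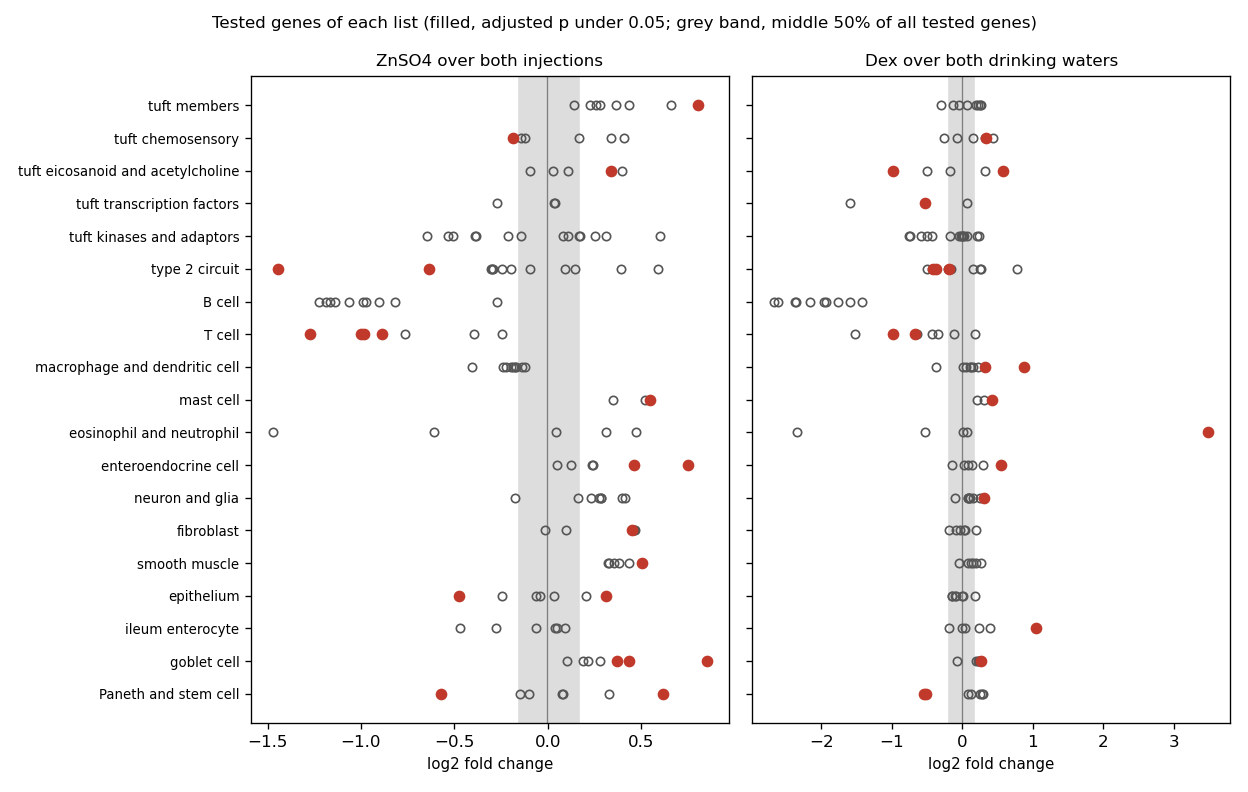
Log2 fold changes (horizontal axis) of the tested genes of each list (vertical axis) for ZnSO4 over both injections (left) and Dex over both drinking waters (right), with filled red points for an adjusted p under 0.05 and open points for the rest, and a grey band for the middle 50% of all tested genes. The tuft members lie at or to the right of 0 on the left, with 1 filled point, Gnat3, and around 0 with no filled point on the right.

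Mouse-to-mouse variation was then compared between the tuft cell genes, after the group means had been subtracted from their log2 values in the 12 mice. Of the 28 pairs of the 8 tested genes, 20 had a Pearson's r above 0, with a median r of 0.225. By exact permutation of mice inside groups (1296 permutations, two-sided), 0 pairs passed an adjusted p of 0.05 and 3 had an unadjusted p under 0.05. The strongest was Dclk1 with Avil, with r = 0.84 (exact p = 0.0108, adjusted p = 0.162) and Spearman's rho = 0.671 (exact p = 0.0579, adjusted p = 0.708), and r = 0.654 without the 2 mice farthest from the median of Dclk1. In 24 relations of the same genes with B cell, macrophage and mast cell markers, also 0 passed the adjusted threshold and 3 had an unadjusted p under 0.05. The strongest was Alox5ap with the mast cell markers, with r = 0.799 (exact p = 0.00772, adjusted p = 0.185), rho = 0.804 (exact p = 0.00694, adjusted p = 0.167) and r = 0.787 without the 2 farthest mice. The mast cell mean holds only the 3 tested genes of that list, Kit, Mcpt1 and Mcpt2, and other gut cells also make Kit.

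**Figure D4:**
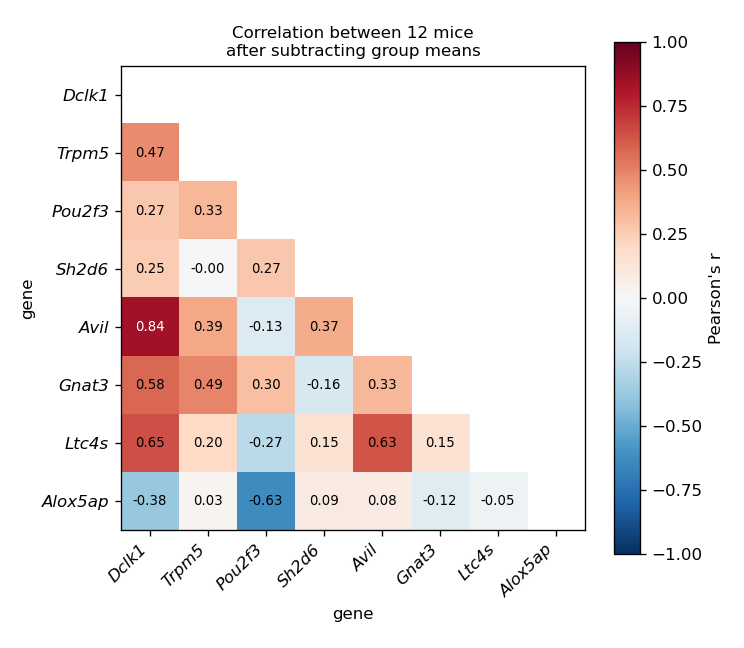
Pearson's r between the 8 tested tuft cell genes (both axes) over 12 mice after subtraction of the group means, as printed in each cell and by colour from -1 (blue) to 1 (red). Dclk1 is red with Avil (0.84) and Ltc4s (0.65), and Alox5ap is blue with Pou2f3 (-0.63).

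The mean of 4 genes, Dclk1, Trpm5, Pou2f3 and Sh2d6, was also compared with each of 15934 other tested genes in the same way, as a description with no test. Among the 10 most similar genes were Sucnr1 (r = 0.926, the second), the receptor by which tuft cells sense succinate, and Rgs13 (r = 0.884, the ninth), a regulator of G protein signalling found in tuft cells and B cells. Sh2d7 (r = 0.902), an adaptor gene related to Sh2d6, was the fifth. The other 7 were H2-T-ps, Sh3bp2, Rbm25, 2810468N07Rik, Cds2, B930059L03Rik and Uchl4, with r from 0.883 to 0.933. In all, 61 genes had an r above 0.8. Of the 28 tested genes of the 4 further tuft lists, 12 were in the top 5% of the ranking, with a median r of 0.595, where the median of all genes was 0.00983. Several of these, such as Ptprc, Spib and Plcg2, are also leukocyte genes, and the 4-gene mean itself had an r of 0.665 with the B cell markers. The part of B cells in this likeness was not tested. The tested members left out of the 4-gene mean were all outside the top 5%. Avil had an r of 0.547 (rank 1295), Gnat3 0.449 (rank 2267), Ltc4s 0.271 (rank 4475) and Alox5ap -0.334 (rank 12234). Of the further lists, Ptgs1, Pla2g4a and Ptges had an r below 0 (-0.228, -0.276 and -0.340). Sucnr1 had 11 to 25 reads per mouse and LFCs of 0.41 with ZnSO4 (95% interval -0.03 to 0.84, edgeR adjusted p = 0.207) and 0.43 with Dex (95% interval -0.01 to 0.87, adjusted p = 0.157).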

How the data were processed

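RNA from the ileum of 12 mice, stored in RNAlater, was made into stranded libraries and sequenced single-end. The authors mapped the reads to mm10 with HISAT2 2.0.4, according to the submitters' processing notes, and counted them per gene with featureCounts, leaving out reads with several positions. The deposited values were raw counts of reads per Ensembl gene, not normalised. The annotation release and the strand setting are not given in the sources used here. The labels do not say how replicate mice were housed or batched, so p-values cover the spread between these 12 samples.

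Symbols and mm10 positions came from the GENCODE annotation of GRCm38, with 54723 of 54838 identifiers matched to a symbol. Analyses used R 4.3.3 with edgeR 4.0.16 and DESeq2 1.42.0. Genes were filtered with filterByExpr (minimum count 10), normalised by TMM, and fitted in 1 quasi-likelihood model of 4 group means. Effects were tested within each injection or drinking water, averaged over both and as an interaction, with Benjamini-Hochberg adjustment over 15938 genes and a threshold of 0.05. No size cut-off was used. Normalised counts were scaled to a common effective library of 11377723 reads. Intervals of single genes are those of the model.

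The 9 genes, the lists and the tests were chosen with earlier results of these data known. Named from the other lists were genes with an adjusted p under 0.05, up to 4 a list, and Alox5, Hpgds, Ptgs1, Il13 and Il17rb, besides the 10 genes most like the 4-gene mean, Fkbp5 and Mt1. From the lists of other cell types, genes were named for ZnSO4 only, and Dex calls are given as counts. Mcpt1, Mcpt2, Cpa3 and Tpsb2 of the mast cell list were also named, with their mean counts only. Alternatives were DESeq2, other normalisation factors (RLE, upper quartile), other filters, a replicate block, only the groups compared, a B cell covariate, an LFC above 0.8, the unadjusted p, and each library left out. The procedure was also run on simulated counts, with a looser filter and larger changes than those of the tuft cell genes. That run therefore does not cover changes of their size. Correlations used log2 CPM with a prior count of 2.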

Additional observations from a re-analysis of the deposited data

How the results depend on the processing

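The number of tuft cell genes called with ZnSO4 over both injections was 1 in the reported fit, 0 with DESeq2 and with all genes of at least 1 count, 2 with upper-quartile factors and with the B cell covariate, 3 at an unadjusted p, and 0 to 2 with 1 library left out. It was 0 without water + PBS replicate 1, water + Dex replicates 1 and 3 or ZnSO4 + PBS replicates 2 and 3, and 2 without ZnSO4 + PBS replicate 1. The single call was Pou2f3, not Gnat3, without water + PBS replicate 3 and with at least 10 counts in every library, a filter that removed Gnat3 and Ltc4s. Without ZnSO4 + Dex replicate 2 it was Sh2d6. For ZnSO4 in PBS mice the number was 0 and 1 at an unadjusted p, and for ZnSO4 in Dex mice 0, 3 at an unadjusted p and 0 to 1 with 1 library left out. All other alternatives kept the reported number. With the replicate block it was 1 for ZnSO4 over both injections and 0 in every other comparison. Of the other genes named with a call, Cysltr1 with Dex and Mmp7 with ZnSO4 lost it under the block (edgeR adjusted p of 0.0502 and 0.0563). Mice with the same number had a median r of -0.0557 over 18 pairs (-0.359 to 0.457), and mice with different numbers had a median r of 0.0225. Such a median cannot decide whether some mice with the same number shared a cage or day. With Dex, the LFC of Pou2f3 was 0.064 with the B cell covariate, and with 1 library left out it lay between -0.16 and 0.088, that of Dclk1 between -0.014 and 0.22, that of Sh2d6 between -0.23 and 0.023 and that of Il17rb between -0.15 and 0.090. With ZnSO4, the LFC of Hpgds was 0.079 with the B cell covariate, and with 1 library left out -0.20 to 0.12, and that of Il17rb -0.029 to 0.20. Over all genes, calls for ZnSO4 in PBS mice numbered 742 (411 to 1056 over other settings, 283 to 1001 with 1 library left out) and for ZnSO4 in Dex mice 696 (527 to 1022, and 322 to 696). Calls for Dex in water mice numbered 1582 (936 to 1852 with 1 library left out) and for Dex in ZnSO4 mice 2189 (1417 to 2358, and 1496 to 2175). The depth limits what can be seen for Il25, Gnat3, Ltc4s and Pou2f3, whose lowest counts per mouse were 0, 7, 5 and 11 reads.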
